A study of Mus musculus with 28 samples.

Results

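Hippocampal RNA of 5xFAD mice that were homozygous for a kinase-dead Ripk1 allele was compared with that of 5xFAD mice carrying normal Ripk1, across all expressed genes. The comparison holds 6 of the 28 libraries of the series: 3 libraries labelled Ripk1 D138N/D138N with 5xFAD, called Ripk1 D138N 5xFAD here, and 3 labelled WT with 5xFAD, called 5xFAD. Libraries were chosen by their labels. Ripk1 D138N/D138N mice without transgenes (Ripk1 D138N) and WT mice, with 3 libraries each, come from the same cohort and served as the non-carrier counterparts. Per the labels all animals of the cohort were 9 months old, had been through behaviour tests, and shared their ancestry with the WT mice of that cohort. Libraries were made from polyadenylated RNA of the hippocampus. The 5xFAD line carries human transgenes, APP among them, with familial Alzheimer's disease mutations behind the neuronal Thy1 promoter, so it models amyloid deposition driven by overexpression. The labels name no tissue-specific driver for the Ripk1 allele, and say nothing of pooling.

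RIPK1 is a kinase and scaffold that acts below the TNF receptor, some Toll-like receptors and ZBP1, a sensor of Z-form nucleic acids. Below the TNF receptor its kinase activity is needed for RIPK3 and MLKL dependent necroptosis and for a route to caspase-8 dependent apoptosis. Survival signalling by the scaffold does not need that activity. D138N changes an aspartate of the catalytic site and leaves a protein without kinase activity. Interferons bind cell-surface receptors whose JAK kinases activate STAT factors such as STAT2. These join IRF9 on a promoter motif, the interferon-stimulated response element, and switch on antiviral genes, guanylate-binding proteins, and the genes of MHC class I antigen presentation. In brains with amyloid, such genes are known to rise mainly in microglia, the resident immune cells, and in part in astrocytes and vessels.

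Depth ran from 29695579 to 44801371 counted reads in Ripk1 D138N 5xFAD and from 16624325 to 31241441 in 5xFAD. Ripk1 itself was at 10.6, 9.83 and 9.95 CPM (read counts scaled to library size) in Ripk1 D138N 5xFAD, against 10.8, 9.70 and 10.1 CPM in 5xFAD. These levels overlapped (log2 fold change -0.01 ± 0.13 SE, edgeR adjusted p = 0.991), and gene counts cannot show the substitution, so they do not check the Ripk1 genotype. Thy1, whose promoter drives the transgenes, was at 1720, 2250 and 1610 CPM in Ripk1 D138N 5xFAD, against 2740, 2300 and 2390 CPM in 5xFAD. All 6 carriers stood far above the 540 to 602 CPM of Ripk1 D138N and the 542 to 609 CPM of WT. The Thy1 levels of the carrier groups did not overlap, but the difference of -0.41 ± 0.12 was not called (edgeR adjusted p = 0.234). App, the mouse gene of the amyloid precursor protein, was at 1420, 1550 and 1450 CPM in Ripk1 D138N 5xFAD, against 1410, 1420 and 1510 CPM in 5xFAD. How far reads of the human APP transgene were counted to App was not tested, so these values do not measure the transgene. Markers of microglia, astrocytes, oligodendrocytes and neurons were all detected, for example the microglial marker P2ry12 at 59.8 to 74.7 CPM over the 6 carriers. In Ripk1 D138N 5xFAD 2 the levels of Thy1, C1qa and Mbp were the highest of the 3 of its genotype. Its choroid plexus markers summed to 142 CPM, against 1980 and 3810 CPM in libraries 1 and 3. That sum varied widely in the other genotypes too. It ran from 53.3 to 4460 CPM in 5xFAD, 73.8 to 4840 CPM in Ripk1 D138N, and 296 to 3020 CPM in WT. 5xFAD 1 stood apart by immediate early genes, which summed to 6250 CPM there and to 800 to 956 CPM in the other 5 carriers. Since the labels name no individual animals, a p-value here speaks only to variation among the libraries of a genotype, which may be technical.

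Many interferon-induced genes were lower in the hippocampus of kinase-dead carriers. Of 21376 genes tested, 73 were lower in Ripk1 D138N 5xFAD than in 5xFAD (0.342% of genes) and 5 were higher (0.0234%), at an edgeR adjusted p under 0.05. The split depended on the fit: DESeq2 called 157 genes lower and 119 higher, and edgeR without a filter on low counts called 192 lower and 195 higher. The lower genes had log2 fold changes of -3.54 to -0.68, with a median of -1.47, and 62 of them were at least 2-fold lower. Over all genes tested the median was -0.01. In all 78 the CPM of the 3 and 3 libraries did not overlap, as they did not for 7.73% of all genes in the lower and 7.4% in the higher direction. Of the 73, 60 belonged to lists of interferon-linked genes (137 members tested, 60 lower, 0 higher, median log2 fold change -1.20), against 0.342% of all genes lower. These lists were chosen with earlier results of the same libraries known, so their direction is a description. Another 5 were in other lists only (Zbp1, Fcgr1, Cxcl10, Ccl12 and Ly6a), and 8 were in none (Tor3a, Samd9l, Ddx60, Lgals9, Rnf213, Gm6548, Cd274 and Pik3ap1). In bulk tissue, fewer cells of a type and less RNA per cell cannot be told apart.

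**Figure D1:**
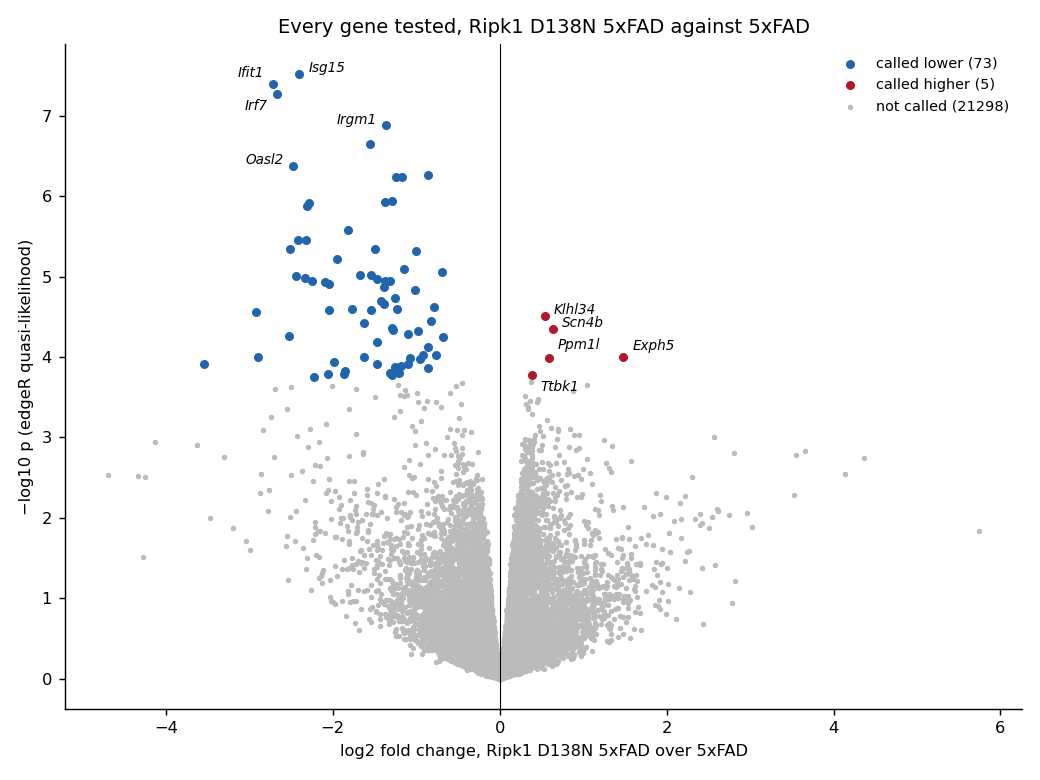
Log2 fold change of Ripk1 D138N 5xFAD over 5xFAD (x axis) against −log10 of the edgeR p (y axis) for each of the 21376 genes tested, with the 73 genes called lower in blue, the 5 called higher in red and the rest in grey. Isg15, Ifit1 and Irf7 have the smallest p, and the called genes higher in Ripk1 D138N 5xFAD reach at most a log2 fold change of 1.48.

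Several transcription factors that carry the interferon signal were lower. Of 12 STAT, IRF and feedback genes tested, 6 were lower and none was higher (median log2 fold change -0.92). Irf7, an interferon-induced factor that amplifies type I interferon responses, was at 4.68, 3.52 and 3.23 CPM in Ripk1 D138N 5xFAD, against 31.4, 19.2 and 22.4 CPM in 5xFAD. It was 6.35-fold lower (log2 fold change -2.67 ± 0.25, edgeR adjusted p = 0.000383). Stat2, which carries the type I interferon signal, was at 42.9, 50 and 44.2 CPM in Ripk1 D138N 5xFAD, against 83.5, 74.8 and 90.5 CPM in 5xFAD (-0.86 ± 0.10, adjusted p = 0.00139). For both factors every kinase-dead carrier lay below every 5xFAD library. Irf9, the DNA-binding partner of STAT2, averaged 20.3 CPM in Ripk1 D138N 5xFAD and 40.8 CPM in 5xFAD (-1.0 ± 0.14, adjusted p = 0.00537). Irf1, a factor induced mainly by interferon gamma, averaged 10 CPM in Ripk1 D138N 5xFAD and 17.4 CPM in 5xFAD (-0.79 ± 0.13, adjusted p = 0.0133). Usp18, the protease that removes ISG15 and dampens the interferon receptor, was 5.01-fold lower. The feedback inhibitor Socs3 missed the threshold at -1.13 ± 0.23 (edgeR adjusted p = 0.0632). Irf3, which starts interferon production below nucleic acid sensors, had a log2 fold change of -0.12 ± 0.11.

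The response element of these factors was looked for in the promoters of the called genes, since so many belong to one response. RefSeq windows (GRCm38.p6) of 250 bases before to 50 bases after each gene's start were searched for its core, GAAA, any 2 bases and again GAAA, on both strands, the other strand reading TTTC, any 2 bases and TTTC. Of the 73 lower genes 55 had a window, and 31 of these (56.4%) held the core, against 507 of the 13514 tested genes with a window (3.75%) and 3.99% of all 27025 genes of the table. It lay wholly before the start in 27 of the 31. None of the 4 higher genes with a window held it. The core of the STAT homodimer motif, TTC, any 3 bases and GAA, which reads alike on both strands, was in 21.8% of the 55 lower genes and 8.29% of the tested genes. Irf7, Oasl2, Xaf1, Tap1, H2-K1 and H2-D1 are among the called genes whose window did not have the response element core, and Zbp1 was among those not matched. The stretches printed here show it, in capitals, in the 9 called genes of smallest p that have it before the start, apart from Ifit3b. They are written 5′ to 3′ along the gene's strand.
Isg15 (chr4:156200850-156200921, minus strand): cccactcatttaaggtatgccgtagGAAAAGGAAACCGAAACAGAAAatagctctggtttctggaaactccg
Ifit1 (chr19:34640760-34640838, plus strand): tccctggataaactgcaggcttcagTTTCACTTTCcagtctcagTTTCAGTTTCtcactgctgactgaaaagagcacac
Irgm1 (chr11:48871421-48871475, minus strand): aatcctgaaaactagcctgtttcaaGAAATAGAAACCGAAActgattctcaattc
Stat2 (chr10:128270251-128270310, plus strand): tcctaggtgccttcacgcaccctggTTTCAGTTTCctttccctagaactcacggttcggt
H2-T23 (chr17:36032791-36032850, minus strand): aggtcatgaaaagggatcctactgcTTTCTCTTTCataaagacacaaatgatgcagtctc
Ifit3 (chr19:34583348-34583441, plus strand): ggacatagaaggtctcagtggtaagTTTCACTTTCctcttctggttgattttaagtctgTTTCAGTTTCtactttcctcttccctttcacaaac
Igtp (chr11:58199497-58199555, plus strand): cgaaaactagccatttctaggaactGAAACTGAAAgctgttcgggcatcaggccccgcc
H2-T22 (chr17:36042899-36042958, minus strand): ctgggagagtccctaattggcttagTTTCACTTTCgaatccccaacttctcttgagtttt
Gbp3 (chr3:142559974-142560039, plus strand): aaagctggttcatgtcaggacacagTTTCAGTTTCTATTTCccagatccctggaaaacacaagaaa
Isg15, Irgm1 and Gbp3 hold overlapping copies of the core, the last ending 56, 14 and 29 bases before the start. Ifit1 and Ifit3 hold 2 separate copies each. Ifit3b, a neighbouring copy of Ifit3, has the same 94 letters at chr19:34607744-34607837. These letters lie before the start, so they do not show how reads of these genes were assigned, which was not tested.

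Part of the antiviral effector genes were lower, and their counts follow family by family. Isg15, a ubiquitin-like protein that interferon attaches to other proteins, was at 1.64, 2.45 and 2.17 CPM in Ripk1 D138N 5xFAD, against 11.1, 8.67 and 13.2 CPM in 5xFAD. This was 5.29-fold lower and had the smallest p of all genes (log2 fold change -2.40 ± 0.21, edgeR adjusted p = 0.000383). The kinase-dead carriers were close to the 1.39 to 1.52 CPM of Ripk1 D138N without transgenes. Of the 5 genes of the ISG15 system, 4 were lower, among them the activating enzyme Uba7 and the ligase Herc6, and Ube2l6 had a log2 fold change of -1.15 ± 0.24 (adjusted p = 0.0692). Ifit1, which binds viral RNA that lacks a host cap, was at 5.36, 5.90 and 5.23 CPM in Ripk1 D138N 5xFAD, against 45.0, 22.7 and 40.6 CPM in 5xFAD (6.56-fold lower, adjusted p = 0.000383). Ifit3 was at 15.5, 19.0 and 13.8 CPM in Ripk1 D138N 5xFAD, against 93.7, 44.5 and 97.2 CPM in 5xFAD (-2.29 ± 0.28, adjusted p = 0.00216). Of the 6 IFIT genes tested 3 were lower, and Ifit2 was at -1.12 ± 0.23 (adjusted p = 0.0684). In 5xFAD the second library was the lowest for Ifit1 and Ifit3, and the kinase-dead carriers lay below it in each case.

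Oligoadenylate synthetases sense double-stranded RNA. Of the 9 genes of their list, 3 were lower (list median -2.22). Oasl2, a mouse member of the family, was at 12.7, 13.4 and 8.39 CPM in Ripk1 D138N 5xFAD, against 84.6, 49.9 and 57.4 CPM in 5xFAD (5.58-fold lower, adjusted p = 0.00139). Oas1a and Oas1b were lower too, by 4.66-fold and 4.13-fold, while Oas2 and Oas3 had log2 fold changes of -2.01 ± 0.40 and -2.50 ± 0.50 and missed the threshold (adjusted p = 0.0584 and 0.0589). Oas1 genes are close copies, so reads may be split between them. Of 18 other antiviral effectors 8 were lower and none higher, with a median of -1.33. Xaf1, an inhibitor of anti-apoptotic proteins, was at 9.50, 10.4 and 9.75 CPM in Ripk1 D138N 5xFAD, against 23.8, 21.3 and 25.2 CPM in 5xFAD (-1.24 ± 0.14, adjusted p = 0.00139). The groups were tight and well apart. Mx1, a dynamin-like GTPase, was at 2.14, 1.71 and 1.19 CPM in Ripk1 D138N 5xFAD, against 7.54, 7.25 and 23 CPM in 5xFAD (7.55-fold lower, adjusted p = 0.0138). Rsad2, which makes an antiviral nucleotide, was at 4.75, 5.17 and 5.01 CPM in Ripk1 D138N 5xFAD, against 11.7, 10.7 and 31.9 CPM in 5xFAD. For both, 5xFAD 3 was far above the other 5xFAD libraries. Without 5xFAD 3 the log2 fold change of Mx1 was -2.14 (edgeR adjusted p = 0.0474), against -2.92 with it, and that of Rsad2 was -1.16 and not called (adjusted p = 0.0856), against -1.87 with it. Mx1 was not called without Ripk1 D138N 5xFAD 1 or 3 (adjusted p = 0.0687 and 0.123). The tetherin gene Bst2 and the membrane protein gene Ifitm3 were 3.10-fold and 2.43-fold lower.

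**Figure D2:**
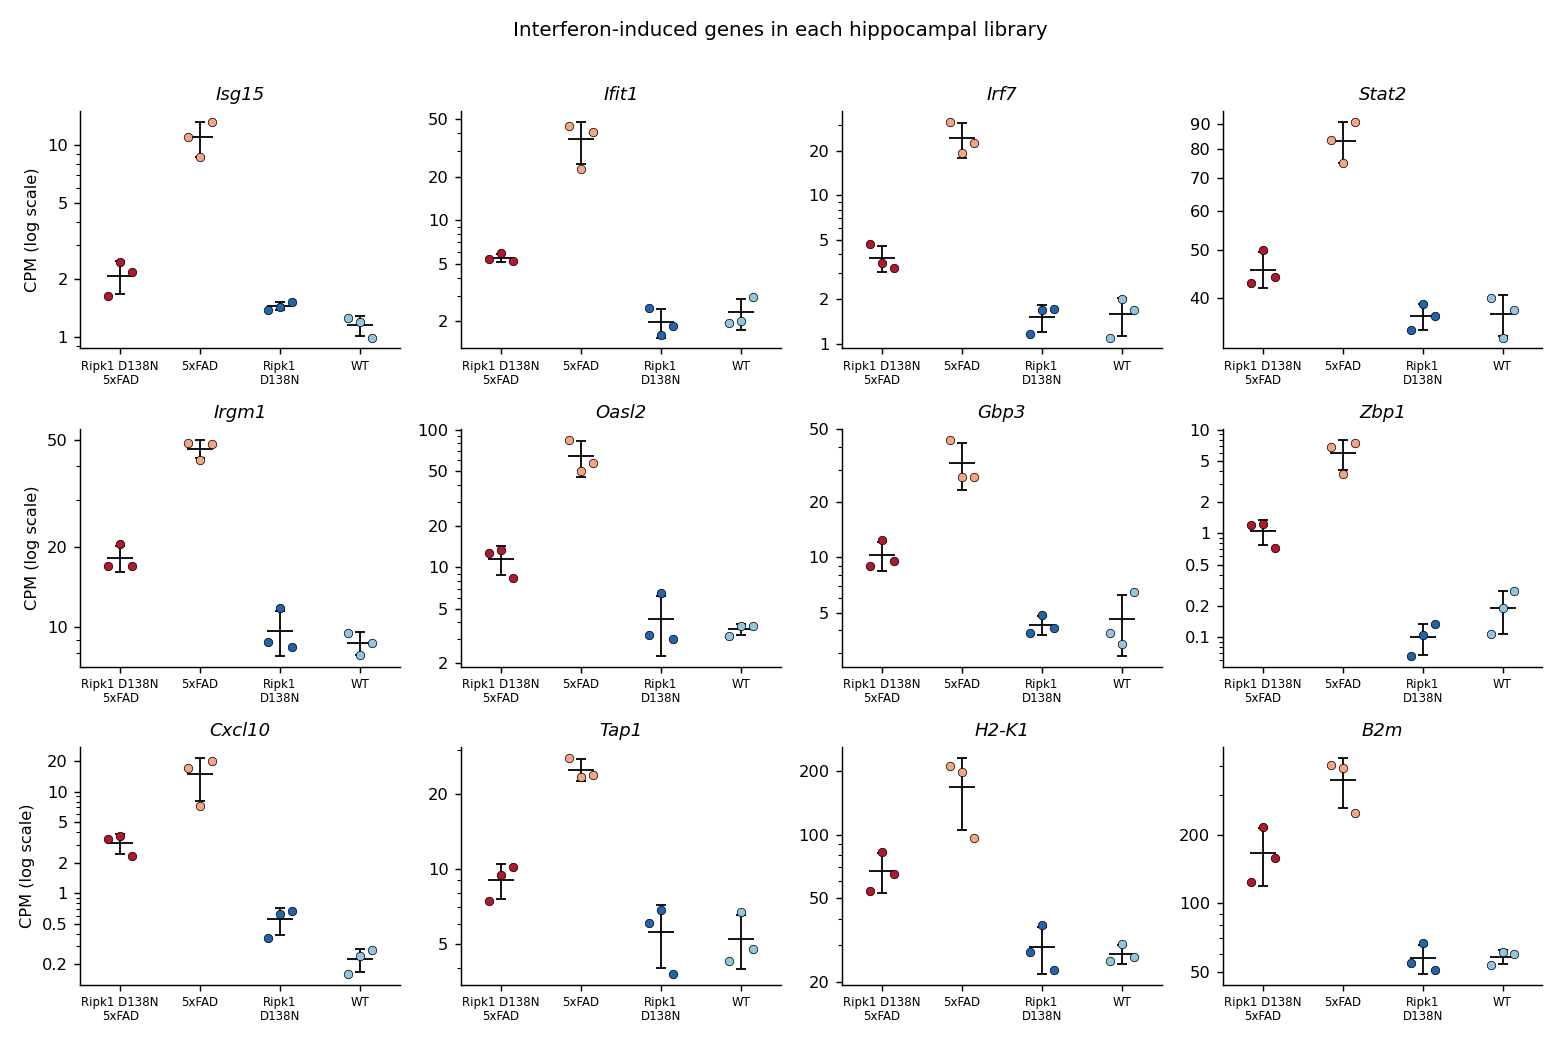
CPM (y axis, log scale) of 12 genes in each library, by genotype from left to right as Ripk1 D138N 5xFAD, 5xFAD, Ripk1 D138N and WT, with points for libraries and bars for the mean ± SD (n = 3). In each panel the 3 Ripk1 D138N 5xFAD libraries lie below the 3 5xFAD libraries, for example at 1.64 to 2.45 CPM against 8.67 to 13.2 CPM for Isg15.

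Among the GTPases that attack pathogen vacuoles, 2 families were examined. Of 11 immunity-related GTPase genes tested 7 were lower (median -1.82). Irgm1, a regulator of this family, was at 17.0, 20.5 and 17.0 CPM in Ripk1 D138N 5xFAD, against 48.9, 42.3 and 48.5 CPM in 5xFAD (-1.36 ± 0.14, adjusted p = 0.000705). Its 3 libraries agreed closely within each genotype. Igtp, also called Irgm3, was at 5.62, 5.37 and 3.67 CPM in Ripk1 D138N 5xFAD, against 21.2, 12.7 and 17.8 CPM in 5xFAD (-1.82 ± 0.23, adjusted p = 0.00406). Iigp1, an effector that the Irgm proteins hold inactive on host membranes, was at 4.21, 4.29 and 4.85 CPM in Ripk1 D138N 5xFAD, against 24.3, 13.3 and 28.7 CPM in 5xFAD (4.96-fold lower, adjusted p = 0.00221). Irgq, a relative named for its sequence, went the other way without passing the test, at 0.17 ± 0.08 (adjusted p = 0.406). Of 10 guanylate-binding protein genes tested 5 were lower and all 10 had negative fold changes (median -1.45). Gbp3 was at 8.93, 12.4 and 9.51 CPM in Ripk1 D138N 5xFAD, against 43.7, 27.3 and 27.3 CPM in 5xFAD, and Gbp2 averaged 7.76 CPM in Ripk1 D138N 5xFAD and 20.8 CPM in 5xFAD. These were 3.18-fold and 2.68-fold lower. Both families consist of close copies, for which the split of reads is uncertain.

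The IFI200 genes encode nuclear and cytosolic DNA-binding proteins, and the Schlafen genes encode proteins that restrict growth and translation. In the IFI200 family 3 of 9 tested were lower and all 9 were below 0 (median -2.22). Ifi204 was at 2.75, 2.48 and 2.39 CPM in Ripk1 D138N 5xFAD, against 10.4, 9.99 and 20.4 CPM in 5xFAD (5.35-fold lower, adjusted p = 0.00474). Ifi206 had the largest fold of the called genes (log2 fold change -3.54 ± 0.66), on 17, 4 and 5 reads in Ripk1 D138N 5xFAD against 28, 56 and 125 reads in 5xFAD. Without Ripk1 D138N 5xFAD 1 it was at -4.35 and not called (edgeR adjusted p = 0.0687), nor was it without Ripk1 D138N 5xFAD 3 (adjusted p = 0.251). Ifi206 was called in 5 of the 12 fits that left out 1 library. In the Schlafen family 3 of 7 were lower (Slfn2, Slfn5 and Slfn8, by 3.08-fold, 2.35-fold and 2.92-fold). Of 15 ADP-ribosyltransferase and nuclear body genes 7 were lower (median -0.98). Sp100, a component of PML nuclear bodies, was at 7.80, 7.88 and 6.74 CPM in Ripk1 D138N 5xFAD, against 17.2, 15.5 and 17.7 CPM in 5xFAD (-1.17 ± 0.13, adjusted p = 0.00139). Parp9 and its partner Dtx3l, Parp12, Parp14, Sp110 and Trim30a were lower as well, by 1.60-fold to 2.45-fold.

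Transcripts of several genes of MHC class I presentation were lower. Of 11 class I genes tested 7 were lower and all 11 were below 0 (median -1.29). B2m, the light chain of every class I molecule, was at 124, 217 and 158 CPM in Ripk1 D138N 5xFAD, against 404, 393 and 250 CPM in 5xFAD (2.10-fold lower, adjusted p = 0.0358). The classical heavy chain H2-K1 was at 54.0, 82.9 and 65.3 CPM in Ripk1 D138N 5xFAD, against 210, 198 and 96.2 CPM in 5xFAD (2.49-fold lower, adjusted p = 0.0462). H2-T23, which encodes the non-classical molecule Qa-1 that natural killer and T cells read, was at 15.3, 18.3 and 14.7 CPM in Ripk1 D138N 5xFAD, against 45.0, 40.4 and 32.4 CPM in 5xFAD (2.44-fold lower, adjusted p = 0.00216). For these 3 genes Ripk1 D138N 5xFAD 2 was the highest of its group and 5xFAD 3 the lowest of its own, whereas 5xFAD 3 was the highest for Mx1 and Rsad2. Nlrc5, the transactivator of class I genes, was 2.82-fold lower (adjusted p = 0.00537). Of 12 genes for peptide supply and loading 2 were lower: the transporter Tap1 (2.77-fold) and the immunoproteasome subunit Psmb8 (2.61-fold). The proteasome activator Psme1 was at 27.9, 30.1 and 27.7 CPM in Ripk1 D138N 5xFAD, against 38.5, 44.0 and 34.9 CPM in 5xFAD, and missed the threshold (-0.45 ± 0.09, adjusted p = 0.0565). Cd274, encoding the T cell inhibitory ligand PD-L1, was at 4.77, 5.57 and 5.31 CPM in Ripk1 D138N 5xFAD, against 13.6, 10.8 and 16.1 CPM in 5xFAD (2.59-fold lower, adjusted p = 0.00216).

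MHC class II and lymphocyte genes had lower point estimates with a wide spread. None of 10 class II genes was called (median -1.07). Cd74, the class II invariant chain, was at 15.6, 51.3 and 40.0 CPM in Ripk1 D138N 5xFAD, against 78.6, 224 and 65.5 CPM in 5xFAD (-1.79 ± 0.59, adjusted p = 0.283). The groups did not overlap, but 5xFAD 2 alone was far above the other 5xFAD libraries. Beside the class I and chemokine genes, 16 markers of T and NK cells summed to 4.18 to 5.63 CPM in Ripk1 D138N 5xFAD, to 7.29 to 12.3 CPM in 5xFAD, and to 1.99 to 3.52 CPM in non-carriers. Of the 11 tested none was called (median -1.07), and the T cell receptor gene Trac was at 0.409, 0.302 and 0.988 CPM in Ripk1 D138N 5xFAD, against 1.41, 1.67 and 1.34 CPM in 5xFAD. None of the 16 was at 0 in all 6 carriers. The part of these cells in the class I and chemokine results was not tested.

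Among sensors of nucleic acids, Zbp1 and the RNA helicases stood out. Zbp1 was at 1.20, 1.24 and 0.725 CPM in Ripk1 D138N 5xFAD, against 6.84, 3.77 and 7.42 CPM in 5xFAD, on 33 to 53 reads in Ripk1 D138N 5xFAD and 106 to 238 reads in 5xFAD. It was 5.69-fold lower (log2 fold change -2.51 ± 0.34, edgeR adjusted p = 0.00537). Of 13 other sensors and adaptors 3 were lower (median -0.37): Ddx58, which encodes RIG-I, Ifih1, which encodes MDA5, and Eif2ak2, which encodes the kinase PKR, by 2.14-fold, 2.15-fold and 1.89-fold. Adar, whose product edits double-stranded RNA and has a form that binds Z-RNA, was at 157, 129 and 143 CPM in Ripk1 D138N 5xFAD, against 133, 116 and 135 CPM in 5xFAD (0.17 ± 0.10, adjusted p = 0.540). The adaptor Mavs was at -0.06 ± 0.13.

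The partners of RIPK1 in cell death and TNF signalling gave no calls apart from Zbp1. Ripk3, the kinase that RIPK1 activates, was at 0.432, 0.302 and 0.329 CPM in Ripk1 D138N 5xFAD, against 0.118, 0.782 and 0.686 CPM in 5xFAD. Mlkl, the executor of necroptosis, was at 0.136, 0.168 and 0.395 CPM in Ripk1 D138N 5xFAD, against 0.530, 0.462 and 1.34 CPM in 5xFAD (-1.73 ± 0.57, adjusted p = 0.279). The levels rest on few reads, 5 to 18 for Mlkl in Ripk1 D138N 5xFAD and 9 to 43 in 5xFAD. Casp8 was at 0.25 ± 0.18 and Fadd at -0.36 ± 0.20. Of 30 genes of TNF and NF-kB signalling none was called (median -0.10, range -0.59 to 0.34). The noncanonical NF-kB genes Relb and Nfkb2 had -0.44 ± 0.14 and -0.59 ± 0.23 (adjusted p = 0.271 and 0.352), the deubiquitinase Cyld 0.20 ± 0.08, and the NF-kB subunit Rela 0.00 ± 0.09. None of 13 inflammasome and IL-1 genes was called (median -0.41). Casp4, an inflammatory caspase, was at 0.841, 1.27 and 1.05 CPM in Ripk1 D138N 5xFAD, against 2.18, 2.70 and 2.59 CPM in 5xFAD (-1.25 ± 0.40, adjusted p = 0.279).

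**Figure D3:**
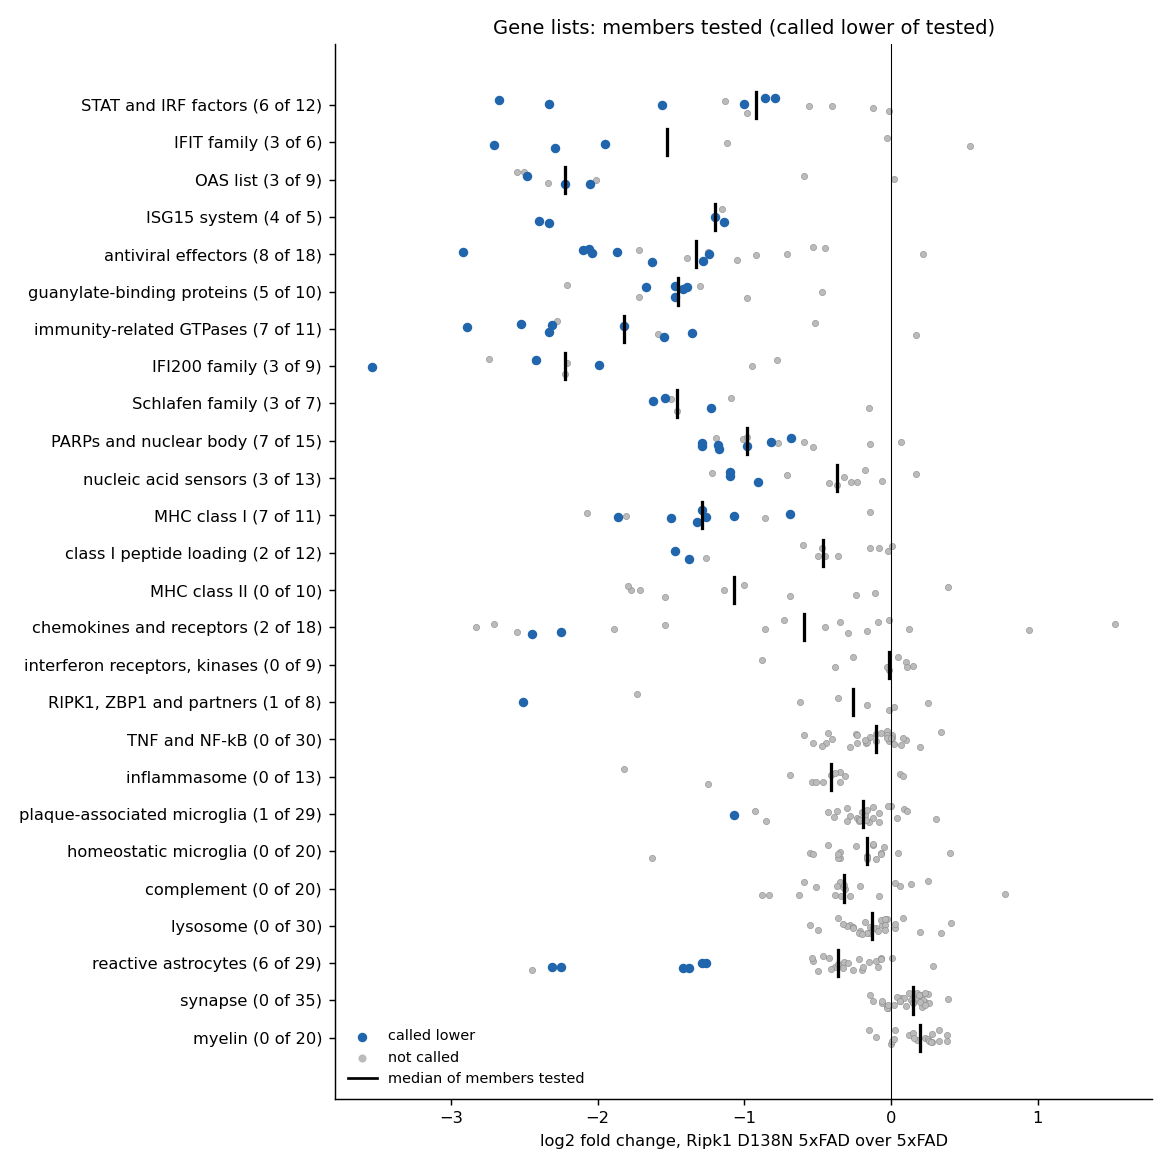
Log2 fold change of Ripk1 D138N 5xFAD over 5xFAD (x axis) for the tested members of 26 gene lists (rows, with the number called lower of the number tested). Blue points are called lower, grey points are not called, and the black bar is the list's median; the interferon-linked lists reach medians of -2.22, while the synapse median is 0.15.

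Interferon genes themselves were barely seen, and no receptor passed the test. Of 13 interferon and receptor genes 9 could be tested and none was called (median -0.01). Ifnb1 and Ifna4 had 0 reads in all 12 libraries, Ifna2 had 2 reads in 5xFAD 3 alone, and Ifng, made by T and NK cells, had 5 reads in 5xFAD 1 alone. Whether their levels differed was not detectable at this depth. The receptor gene Ifnar1 was at 57.6, 50.7 and 59.0 CPM in Ripk1 D138N 5xFAD, against 51.2, 47.9 and 51.8 CPM in 5xFAD (0.15 ± 0.09), and the kinases Jak1 and Tyk2 were at 0.10 ± 0.08 and -0.03 ± 0.10. Of 18 chemokine and receptor genes 2 were lower. Cxcl10, which draws CXCR3-bearing T cells, was at 3.43, 3.69 and 2.31 CPM in Ripk1 D138N 5xFAD, against 17.2, 7.32 and 20.1 CPM in 5xFAD (4.74-fold lower, adjusted p = 0.00797). Ccl12, a mouse monocyte attractant, was 5.45-fold lower, on averages of 0.795 CPM in Ripk1 D138N 5xFAD and 4.30 CPM in 5xFAD (adjusted p = 0.00797).

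Few genes of plaque-associated microglia passed the test. Of 29 tested, B2m alone was called, beside 0.342% of all genes called lower, and it also belongs to the class I list. The median of the 29 was -0.19 (range -1.07 to 0.31), with 25 below 0 and 4 above. The carrier groups did not overlap for 8 of the 29 in the lower direction and for 0 in the higher. Over all genes these shares were 7.73% and 7.4%. Apoe, the lipid carrier that these cells induce, was at 1780, 2530 and 1850 CPM in Ripk1 D138N 5xFAD, against 2080, 2680 and 2400 CPM in 5xFAD (-0.22 ± 0.13, adjusted p = 0.516). The microglial lipid receptor gene Trem2 and the cystatin gene Cst7 were picked after their values were seen. Trem2 was at 79.8, 114 and 76.8 CPM in Ripk1 D138N 5xFAD, against 91.8, 112 and 113 CPM in 5xFAD, and Cst7 at 50, 60.2 and 45.7 CPM in Ripk1 D138N 5xFAD, against 46.6, 63.9 and 71.0 CPM in 5xFAD. Both overlapped between the groups, and their log2 fold changes were -0.23 ± 0.15 and -0.22 ± 0.17. Spp1, a secreted phosphoprotein, was at 0.00 ± 0.33. The summed level of the 29 genes was 4820 to 5950 CPM in Ripk1 D138N 5xFAD and 5560 to 6540 CPM in 5xFAD, and that of 20 homeostatic microglial genes was 1680 to 1820 CPM and 2000 to 2080 CPM in these groups. The homeostatic sums did not overlap, though no gene of the list was called (median -0.16). These sums moved with the interferon genes by a smaller factor, and their part in that result was not tested.

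Fcgr1, a high-affinity IgG receptor that interferon gamma is known to induce, was at 9.66, 10.6 and 7.91 CPM in Ripk1 D138N 5xFAD, against 15.5, 16.3 and 22.7 CPM in 5xFAD (1.94-fold lower, adjusted p = 0.0359). It was the one call among 6 Fc receptor genes, and none of 8 surface Toll-like receptor and 30 lysosomal genes was called. No complement gene of 20 was called (median -0.32). C1qa, a subunit of the initiating complex that tags synapses, was at 121, 201 and 129 CPM in Ripk1 D138N 5xFAD, against 240, 249 and 210 CPM in 5xFAD (-0.63 ± 0.15, adjusted p = 0.151). C4b was at 466, 671 and 484 CPM in Ripk1 D138N 5xFAD, against 687, 685 and 667 CPM in 5xFAD (-0.33 ± 0.11, adjusted p = 0.279). For both, Ripk1 D138N 5xFAD 2 came near the 5xFAD libraries while libraries 1 and 3 lay well below them. Of 29 reactive astrocyte genes 6 were lower, and all 6 are known as interferon-induced: H2-T23, Iigp1, Cxcl10, Gbp2, Psmb8 and H2-D1. Gfap, the intermediate filament of astrocytes, was at 1650, 2410 and 1800 CPM in Ripk1 D138N 5xFAD, against 2330, 2390 and 2300 CPM in 5xFAD (-0.26 ± 0.14, adjusted p = 0.466), and Serpina3n was at -0.50 ± 0.13 (adjusted p = 0.210). Of 20 vessel genes, Ly6a alone was lower, at 14, 15.2 and 10.1 CPM in Ripk1 D138N 5xFAD, against 25, 24.1 and 22 CPM in 5xFAD (1.82-fold, adjusted p = 0.0294).

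The 5 higher genes belong to no immune list, and each stood nearer to its WT level in kinase-dead carriers than in 5xFAD. Klhl34 was at 76.1, 63.1 and 73.4 CPM in Ripk1 D138N 5xFAD, against 48.3, 49.0 and 48.9 CPM in 5xFAD (0.54 ± 0.09, adjusted p = 0.0152). Scn4b, a sodium channel beta subunit, was at 21.7, 21.1 and 26.7 CPM in Ripk1 D138N 5xFAD, against 14.7, 14.4 and 15.6 CPM in 5xFAD (0.63 ± 0.11, adjusted p = 0.0201). Exph5, a Rab27 effector in vesicle traffic, was at 5.62, 3.05 and 5.89 CPM in Ripk1 D138N 5xFAD, against 1.71, 2.06 and 1.46 CPM in 5xFAD (1.48 ± 0.27, adjusted p = 0.0358). Library 2 was the lowest kinase-dead carrier for these 3 genes, and still above all 5xFAD libraries. Ppm1l, a membrane-bound protein phosphatase, was at 174, 133 and 172 CPM in Ripk1 D138N 5xFAD, against 101, 103 and 115 CPM in 5xFAD (0.59 ± 0.11, adjusted p = 0.0359). Ttbk1, a neuronal kinase that phosphorylates tau, was at 174, 171 and 175 CPM in Ripk1 D138N 5xFAD, against 132, 132 and 135 CPM in 5xFAD (0.38 ± 0.07, adjusted p = 0.0466). In 5xFAD against WT, which shares the 5xFAD libraries with this comparison, these genes had log2 fold changes of -1.57 to -0.58. Genes picked for low levels in those 5xFAD libraries tend to lie below WT there too, so the nearness to WT is a description. No synaptic gene of 35 was called (median 0.15), with the NMDA receptor gene Grin2b at 0.39 ± 0.13 (adjusted p = 0.279) and Snap25 at -0.06 ± 0.08. The next genes in order of p that were higher, without a call, were Slc38a2, Irs1, Zkscan3, Zfp609 and Dlgap2 (adjusted p = 0.0558 to 0.0739). The next lower ones were Psme1, Dhx58, Ly6e, Oas2 and Oas3 (adjusted p = 0.0565 to 0.0589).

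**Figure D4:**
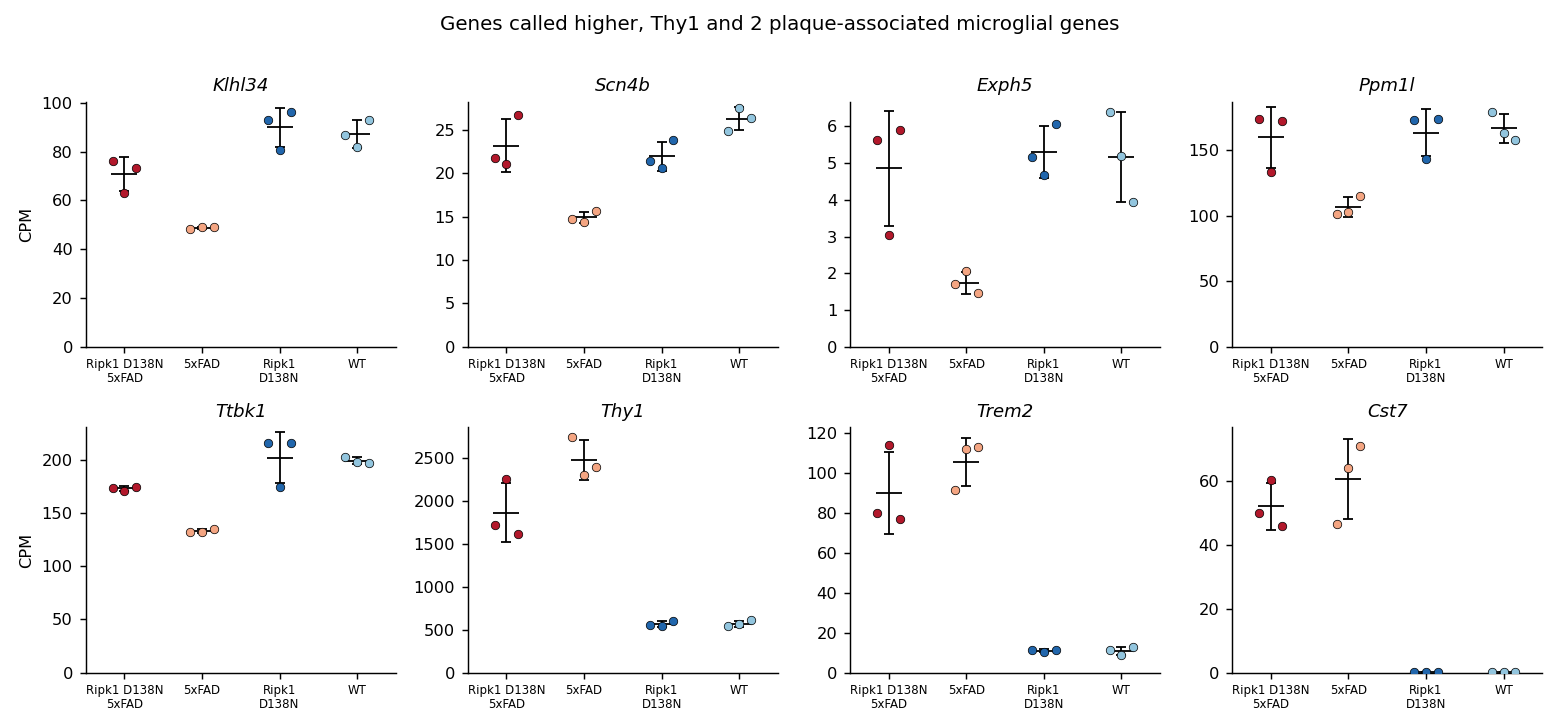
CPM (y axis, linear from 0) of the 5 genes called higher, of Thy1, and of the plaque-associated microglial genes Trem2 and Cst7 in each library, by genotype from left to right as Ripk1 D138N 5xFAD, 5xFAD, Ripk1 D138N and WT, with the mean ± SD (n = 3). The 5 higher genes do not overlap between carrier groups (Ttbk1 at 171 to 175 CPM against 132 to 135 CPM), while Trem2 and Cst7 do.

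Without the transgenes no gene passed the test. Ripk1 D138N against WT gave no call by edgeR, DESeq2 or limma-voom (edgeR, 0% of 21376 genes, 514 at an unadjusted p under 0.05, smallest adjusted p 0.9998). The 73 genes lower in kinase-dead carriers had a median log2 fold change of -0.01 in Ripk1 D138N against WT, with 38 below and 35 above 0. That comparison shares no library with the one in carriers. Single genes of the 73 ran from -1.83 to 1.43 there. Some had few reads in non-carriers, such as Zbp1 with 2 to 10, so a decrease could hardly be seen for them. Others were well counted, such as Stat2 with 1043 to 1496 reads. Irf7 was at 1.16, 1.68 and 1.72 CPM in Ripk1 D138N, against 1.10, 2 and 1.68 CPM in WT. The groups overlapped.

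A test of whether the effect of the mutation itself differed between carriers and non-carriers called 6 genes (0.0281% of genes tested). All 6 had a lower log2 fold change in carriers than in non-carriers. Among them were Isg15 (difference of log2 fold changes -2.73 ± 0.31, edgeR adjusted p = 0.0120), Irgm1 (-1.51 ± 0.19, adjusted p = 0.0261), Irf7 (-2.59 ± 0.36, adjusted p = 0.0404), Ifit1 (-2.51 ± 0.36, adjusted p = 0.0404) and Oasl2 (-2.72 ± 0.40, adjusted p = 0.0404). For the 72 other genes called in carriers a difference between backgrounds was not shown. The test called no gene with limma-voom (1619 at an unadjusted p under 0.05) and 83 with DESeq2, 62 lower and 21 higher. Leaving out 1 library gave 0 to 31 calls, with 0 without Ripk1 D138N 5xFAD 3, 5xFAD 3, WT 1 or WT 3, and 31 without Ripk1 D138N 5xFAD 2.

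**Figure D5:**
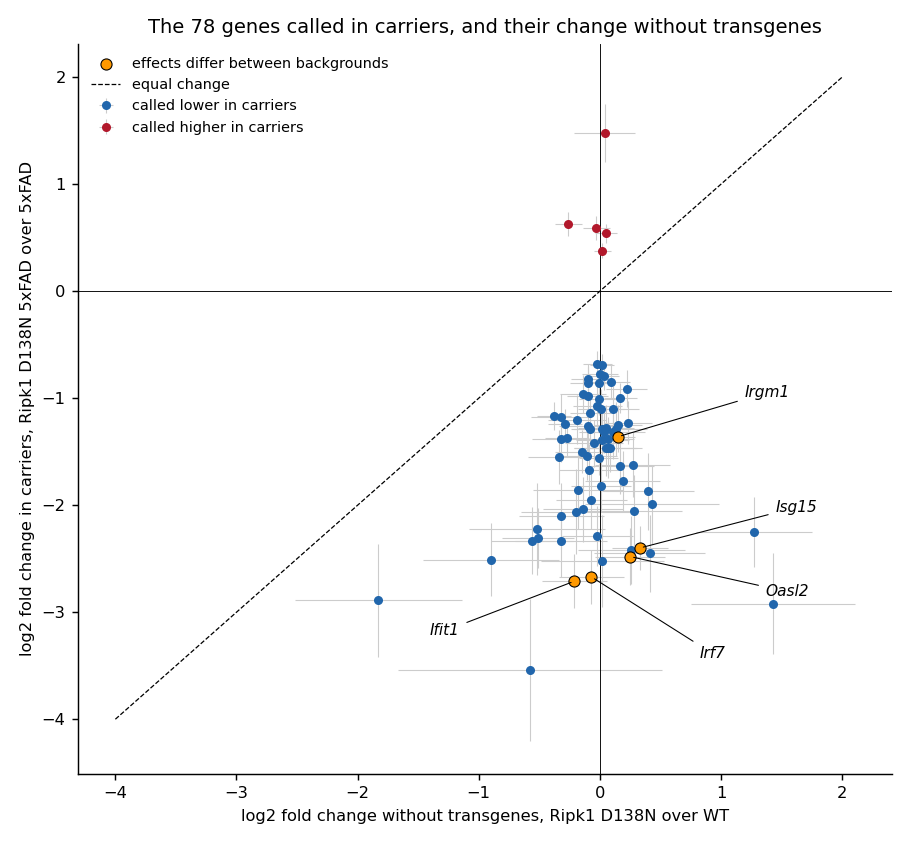
Log2 fold change of Ripk1 D138N over WT (x axis) against that of Ripk1 D138N 5xFAD over 5xFAD (y axis) for the 78 genes called in carriers, with SE as bars and equal change as a dashed line. The 73 genes called lower lie below the dashed line with a median of -0.01 on the x axis, and the labelled genes in orange are among the 6 whose effects differed between backgrounds.

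Some of the same genes were still called in Ripk1 D138N 5xFAD against Ripk1 D138N, where 3.37% of genes were called (3.12% higher), beside 16.1% in 5xFAD against WT (8.11% higher, 8.02% lower). Ifit1 had a log2 fold change of 1.47 ± 0.26 in Ripk1 D138N 5xFAD against Ripk1 D138N (edgeR adjusted p = 0.00455) and of 3.97 ± 0.26 in 5xFAD against WT (adjusted p = 4.57e-07). Irf7 had log2 fold changes of 1.33 (edgeR adjusted p = 0.0104) and 3.92 in the same comparisons. Isg15 had 0.52 ± 0.22 (adjusted p = 0.287) and 3.25 ± 0.22 (adjusted p = 5.08e-07). These comparisons share carriers with that of Ripk1 D138N 5xFAD and 5xFAD and are given only side by side. The difference between them is the test of backgrounds above.

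The number of calls leaned on single libraries. All 78 called genes kept their direction in every fit that was run. Their CPM did not overlap between the carrier groups, so leaving out 1 library could hardly reverse a sign. The kept direction is therefore no separate support. Without Ripk1 D138N 5xFAD 1 or 3, 20 and 14 genes were called, and without 5xFAD 1 it was 43. Without Ripk1 D138N 5xFAD 2 it was 673 (325 lower, 348 higher). Cd274, H2-T23, Ifit1, Ifit3, Igtp, Iigp1, Irf7, Irgm1, Isg15, Oasl2, Sp100, Stat2 and Xaf1 were among the 14 genes called whichever of the 12 libraries was left out, and 64 others, Zbp1, B2m, H2-K1 and the 5 higher genes among them, were lost in at least 1 such fit. When each library's Thy1 level entered the fit as a covariate, no gene was called (1258 at an unadjusted p under 0.05). In that fit Isg15 had a log2 fold change of -2.21 (edgeR adjusted p = 0.441), and the median of the 137 interferon-linked genes was -1.10 against -1.20 without the covariate. Thy1 level and genotype cannot be told apart in these carriers, whose Thy1 ranges do not overlap.

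The authors' deposited table of this comparison gives 220 of its 18096 rows an adjusted p under 0.05. Some genes, H2-T22 and H2-Q7 among them, are repeated in it, so these are counts of rows. Its fold changes run 5xFAD over Ripk1 D138N 5xFAD, so its positive values mean lower in kinase-dead carriers. Of these 220 rows of the authors' deposited table, 142 were lower and 78 higher in Ripk1 D138N 5xFAD. This split has a larger higher part than the 73 and 5 genes called here. Genes called here take up 77 rows of the table, with H2-T22 repeated. All 77 rows have an adjusted p under 0.05 and the same direction there. Gm6548 and Gm12250, called here, are not among them.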

How the data were processed

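Hippocampal polyadenylated RNA was sequenced, and the deposited values are raw read counts per gene, made with featureCounts per the labels. Tools in the submitters' processing notes are HISAT2, edgeR 4.0.16 and DESeq2 1.42.1, with builds mm10 (GRCm38) and mm39 (GRCm39); which build and annotation the counts used is not given in the sources used here, nor whether strand was counted. The authors' deposited table of the comparison holds log2 fold changes, p-values and adjusted p-values. Genotypes came from the labels.

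Counts of the 12 libraries of the Ripk1 cohort were fitted together in edgeR 4.0.16 (R 4.3.3) with 1 mean per genotype, TMM scaling and filterByExpr (minimum count 10), by the quasi-likelihood test with Benjamini-Hochberg adjustment over 21376 genes. A gene was called at an adjusted p under 0.05. Every adjusted p is from this edgeR fit unless another tool is named. CPM were computed by edgeR on TMM-scaled library sizes, over tested genes for single genes and over all genes for marker sums and marker ranges, errors of log2 fold changes are SE, and SE is the log2 fold change over the square root of F. RefSeq promoter windows were matched by symbol. Totals ran from 16624325 to 44801371 reads, so a gene with few reads has a wide error.

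The comparison, its gene lists and the genes named were chosen with earlier results of these data known. Named genes were Ripk1, Zbp1, Ripk3, Mlkl, Thy1 and App, the 15 lower and 5 higher calls of smallest p, the 5 uncalled genes of smallest p in each direction, and members of lists by smallest and largest p or highest level, any member for lists of up to 12; other calls could be named. Alternatives were RLE and upper quartile scaling, no or a stricter filter, DESeq2 1.42.0, limma-voom (limma 3.58.1), a replicate block, the 6 carriers alone, Thy1 as a covariate, and leaving out each library. Libraries of the other cohort and the RIP libraries were not used here, and a few genes that the rule would name are not reported here.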

Additional observations from a re-analysis of the deposited data

Results flagged for a closer look

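The effect of the Ripk1 mutation differed between 5xFAD carriers and non-carriers, by the interaction test of edgeR over all genes, for 6 genes. Among them the difference of log2 fold changes was -2.73 for Isg15, -1.51 for Irgm1, -2.59 for Irf7, -2.51 for Ifit1 and -2.72 for Oasl2. In carriers these genes were lower in all 3 Ripk1 D138N 5xFAD libraries than in all 3 5xFAD libraries. Between Ripk1 D138N and WT, which gave no calls, their log2 fold changes ran from -0.21 for Ifit1 to 0.33 for Isg15. The interaction test called 0 genes with limma-voom or the replicate block and 83 with DESeq2. Leaving out 1 library gave 0 to 31 calls.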

How the results depend on the processing

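The 78 calls in carriers, 60 of them in the interferon-linked lists, kept their sign in all fits run. Their CPM did not overlap between the carrier groups, which left little room for a change of sign. Scaling by RLE or upper quartile, a stricter filter, limma-voom and the 6 carriers alone left the count within 1.5 times (67 to 107 calls). Without a filter 387 genes were called in carriers (192 lower, 195 higher) and 94 in the lists, with DESeq2 276 (157 lower, 119 higher) and 91, and with the Thy1 covariate 0 and 0. Leaving out 1 library gave 14 to 673 calls and 13 to 77 list members. Ripk1 D138N against WT gave 2 calls without a filter and 0 to 1 when leaving out 1 library. The interaction gave 145 calls without a filter (92 lower, 53 higher), 83 with DESeq2, 0 with limma-voom and 0 to 31 when leaving out 1 library. The cause of these shifts was not tested. With the replicate number as a block (replicate block), 67 genes were called in carriers, 62 of them among the 78, and 0 in the interaction. Deviations of same-numbered Ripk1 D138N 5xFAD and 5xFAD libraries correlated at 0.00114, -0.0964 and -0.146, and those of 5xFAD with Ripk1 D138N at 0.0583, 0.182 and 0.226 and of Ripk1 D138N with WT at 0.013, 0.17 and 0.243. Since not every pair passed 0.1, the numbers were not taken to pair the libraries.

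Some uncalled genes changed sign between fits. In the main fit Gfap, Trem2 and Thy1 were at -0.26, -0.23 and -0.41, and the others were nearer to 0. The Thy1 covariate gave 0.01 for Gfap, 0.05 for P2ry12, 0.13 for Snap25, 0.07 for Trem2, 0.16 for Tyk2, 0.05 for Spp1, 0.02 for Rela and 0 for Thy1 itself. Ripk1 was at 0 without a filter and with DESeq2 and at 0.01 with limma-voom, and its values leaving out 1 library ran from -0.04 to 0.04. The same range was -0.17 to 0.10 for Mbp, -0.12 to 0.15 for Spp1, -0.04 to 0.04 for Rela, -0.09 to 0.04 for Tyk2 and -0.02 to 0.06 for App. Mbp was at -0.01 with limma-voom and 0 with upper quartile scaling, the stricter filter and the block. Rela was at 0 with RLE, no filter, DESeq2 and the 6 carriers. Spp1 was at 0 with RLE, DESeq2 and the 6 carriers, and at 0.01 without a filter and with the block.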

Other observations

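The genes of this paragraph were picked after their values were seen. Zkscan3, a zinc finger gene, was at 113, 110 and 125 CPM in Ripk1 D138N 5xFAD, against 67.5, 63.9 and 58.3 CPM in 5xFAD, and was not called (log2 fold change 0.88 ± 0.18, edgeR adjusted p = 0.0632). It was at 145, 130 and 124 CPM in Ripk1 D138N, against 69.5, 62.4 and 118 CPM in WT, where WT 3 alone came near the mutants (0.68 ± 0.18). Rpp40, which encodes a subunit of ribonuclease P, was at 4.46, 4.16 and 4.44 CPM in Ripk1 D138N 5xFAD, against 6.31, 5.69 and 5.67 CPM in 5xFAD (-0.43 ± 0.16, adjusted p = 0.327). Its values were 4.3, 3.49 and 3.02 CPM in Ripk1 D138N, against 4.61, 5.11 and 4.91 CPM in WT. Both genes lie on chromosome 13, as does Ripk1, in RefSeq.

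Fcrls, a gene of resting microglia, was at 40.9, 15.4 and 13.3 CPM in Ripk1 D138N 5xFAD, against 68.3, 70.2 and 78.1 CPM in 5xFAD, and was not called (-1.63 ± 0.41, adjusted p = 0.18). Egr2, an immediate early gene, was at 2.11, 1.64 and 1.56 CPM in Ripk1 D138N 5xFAD, against 87.9, 3.91 and 2.84 CPM in 5xFAD, so that 5xFAD 1 set its mean. The median of 21 immediate early genes was -1.72, and 0.03 without 5xFAD 1. Slc1a2, the main astrocyte glutamate transporter, was at 4900, 3380 and 5120 CPM in Ripk1 D138N 5xFAD, against 3110, 2870 and 3170 CPM in 5xFAD (0.55, adjusted p = 0.228). Of 20 myelin genes 18 had values above 0 (median 0.20), and none was called.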
